A study of Mus musculus with 24 samples.

Results

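Chemokines are the signals with which macrophages call other leukocytes, and 10 of their genes were followed here in resting mouse macrophages: Ccl2, Ccl7, Ccl12, Ccl3, Ccl4, Ccl6, Ccl9, Cxcl2, Cxcl16 and Pf4. They were chosen by symbol and not by a measured value, though with earlier results of these data known. All 10 were found among the 23337 genes of the count tables. The cells were bone-marrow-derived macrophages (BMDMs) of C57BL/6J mice aged 6 to 12 weeks. Marrow precursors matured over 7 days with M-CSF, the cytokine on which macrophages depend, at 20 ng/mL, and part of the medium was exchanged every 3 days for medium with 40 ng/mL. The Apobec1 -/- cultures (KO, 6 cultures) are deficient in Apobec1, whose product deaminates cytidine to uridine in RNA, and the wild-type cultures (WT, 6 cultures) came from littermates or age-matched mice. Per the labels, flow cytometry for F4/80 and Cd11b was used to check the cells. Each culture gave 1 library of total RNA and 1 of ribosome footprints, the fragments of mRNA shielded by translating ribosomes. The labels place the cultures in 3 batches, with KO1 and WT1 to WT3 in batch 1, KO2 to KO4 and WT4 in batch 2, and KO5, KO6, WT5 and WT6 in batch 3, and name no stimulus. Nothing in them ties a culture to an animal of its own, so the p-values below reflect the spread among cultures, part of which may be technical.

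Chemokines are small secreted proteins that bind G-protein-coupled receptors on leukocytes and steer them along a gradient. The MCP group (Ccl2, Ccl7, Ccl12) acts on Ccr2 of inflammatory monocytes, and Ccl3 acts on Ccr1, as do Ccl6 and Ccl9, which are known from rodents. Ccl4 attracts monocytes and lymphocytes. Cxcl2 attracts neutrophils through Cxcr2, Cxcl16 is made as a membrane protein that is shed by Adam10 and binds Cxcr6, and Pf4 (platelet factor, also called Cxcl4) is known best from platelet granules. Macrophages transcribe Ccl2, Ccl3, Ccl4 and Cxcl2 rapidly when the transcription factor NF-kB is activated, whereas Ccl6 and Ccl9 are made without such a stimulus.

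Counts in genes numbered 5077478 to 12059361 per total RNA library, whereas the footprint libraries held 29561 (WT6) to 3714912 (WT4), and no more than 223504 in any of the 4 batch 3 cultures. Apobec1 itself had footprints at 0 to 24.4 CPM (counts per 1000000, with TMM-scaled library totals) in the KO cultures, against 59.6 to 102 CPM in the WT cultures, while its total RNA was higher in KO (604 to 1276 CPM) than in WT (313 to 474 CPM). Batch 3 stood apart: of the 12 macrophage markers listed, 10 were found by symbol, and all 10 fell relative to batch 2 and 8 relative to batch 1, with the M-CSF receptor Csf1r at log2 fold changes of -1.85 and -1.38 and the phagocytic receptor Mertk at -3.00 and -3.26. Summed markers of neutrophils (14 of 15 found) ranged over 58.6 to 72.3 CPM in batch 1, 159 to 595 in batch 2 and 454 to 603 in batch 3. Those of inflammatory monocytes (8 of 8) ranged over 126 to 165, 452 to 588 and 250 to 310 CPM. Dendritic cell markers (9 of 9) ranged over 96.6 to 153, 18.4 to 84.5 and 14.6 to 16.8 CPM. The 1 of them that passed the filter on low counts, the integrin gene Itgax, fell in batch 2 relative to batch 1 (-1.76) and in batch 3 relative to batch 1 and batch 2 (-3.46 and -1.71). Mast cell and basophil markers (10 of 10, with Mcpt4 and Tpsb2 at 0) ranged over 6.92 to 13.5, 4.14 to 5.67 and 43.6 to 72.9 CPM, and the 1 that passed the filter was the receptor gene Kit, which rose in batch 3 relative to batch 1 and batch 2 (2.40 and 4.35). Stromal and endothelial markers (10 of 10, 1 passing) ranged over 13.2 to 16.2, 25.1 to 34.6 and 27.3 to 48.2 CPM, and the sums for lymphocytes and erythroid cells were at most 8.44 CPM in any culture. The Y-linked gene Kdm5d had 0 counts in all 4 cultures of batch 3 and Xist averaged 41.75 ± 11.01 CPM there (SD, n = 4), so batch, sex and cell make-up cannot be told apart in comparisons with batch 3, nor batch and cell make-up in that of batches 2 and 1, and their part in the results was not tested. In these bulk libraries fewer cells of a type and less RNA per cell cannot be told apart either.

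Of the 10 genes, 8 lie on chromosome 11 and 2 on chromosome 5 (RefSeq, GRCm38.p6). Ccl2 (chr11:82035577-82037452), Ccl7 (chr11:82045712-82047525) and Ccl12 (chr11:82101845-82103399) form a block of 67.8 kb that also holds Ccl11, and Ccl9 (chr11:83572917-83578636), Ccl6 (chr11:83587886-83593087), Ccl3 (chr11:83647843-83649378) and Ccl4 (chr11:83648624-83664683) a second of 91.8 kb. Cxcl16 (chr11:70454389-70459984) lies apart from both, and Pf4 (chr5:90772435-90773383) and Cxcl2 (chr5:90903899-90905938) bound a block of 134 kb that also holds Cxcl1, Cxcl3 and Cxcl15. The annotated spans of Ccl3 and Ccl4 overlap by 0.754 kb, and since the strand setting of the counting was not given, reads in that overlap may not be told apart. The promoter table held 6 of the 10 genes (Ccl12, Ccl3, Ccl6, Ccl9, Cxcl2 and Pf4). Of these, 3 are shown as the 250 bases before the start site, read along the gene's strand: Cxcl2 and Ccl12, whose total RNA differed most between batches 2 and 3 among the 6, and Ccl9, the steadiest of the 10 across cultures. Capitals mark matches to the kappaB consensus bound by NF-kB and to TATAAA, on either strand.
Cxcl2 (chr5:90903649-90903898, plus strand): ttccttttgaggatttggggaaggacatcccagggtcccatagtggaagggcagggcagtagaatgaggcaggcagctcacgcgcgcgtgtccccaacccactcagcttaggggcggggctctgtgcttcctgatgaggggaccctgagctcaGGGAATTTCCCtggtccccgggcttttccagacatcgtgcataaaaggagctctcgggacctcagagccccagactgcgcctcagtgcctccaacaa
Ccl12 (chr11:82101595-82101844, plus strand): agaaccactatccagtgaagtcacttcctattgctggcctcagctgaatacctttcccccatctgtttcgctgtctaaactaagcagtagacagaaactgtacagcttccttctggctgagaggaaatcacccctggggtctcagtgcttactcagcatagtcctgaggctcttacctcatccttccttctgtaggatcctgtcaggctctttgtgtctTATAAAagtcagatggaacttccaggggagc
Ccl9 (chr11:83578637-83578886, minus strand): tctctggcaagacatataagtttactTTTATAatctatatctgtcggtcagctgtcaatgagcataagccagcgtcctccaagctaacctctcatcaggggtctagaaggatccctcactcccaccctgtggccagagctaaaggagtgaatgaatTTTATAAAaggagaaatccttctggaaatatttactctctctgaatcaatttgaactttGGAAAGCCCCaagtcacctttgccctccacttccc
The kappaB consensus was found in 2 of the 6 windows: in Cxcl2 on both strands, overlapping, at positions -97 and -96 from the start site, and in Ccl9 at position -35. Windows here run 250 bases before to 50 bases after the start, and 4.81% of all 21262 windows hold the consensus. TATAAA was found in Ccl12, at position -31, and at 3 places in Ccl9, of which those at -94 and -92 overlap, and in 12.6% of all windows. Of the other motifs searched, the AP-1 letters TGANTCA were found in 1 of the 6 windows (Ccl9) and 6.99% of all, the PU.1 core GAGGAA in 4 and 27.4%, a C/EBP motif in 4 and 37.3%, in Ccl9 overlapping the kappaB match, and the interferon response motif in 0 and 3.35%. These are matches of letters, not measured sites.

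**Figure D1:**
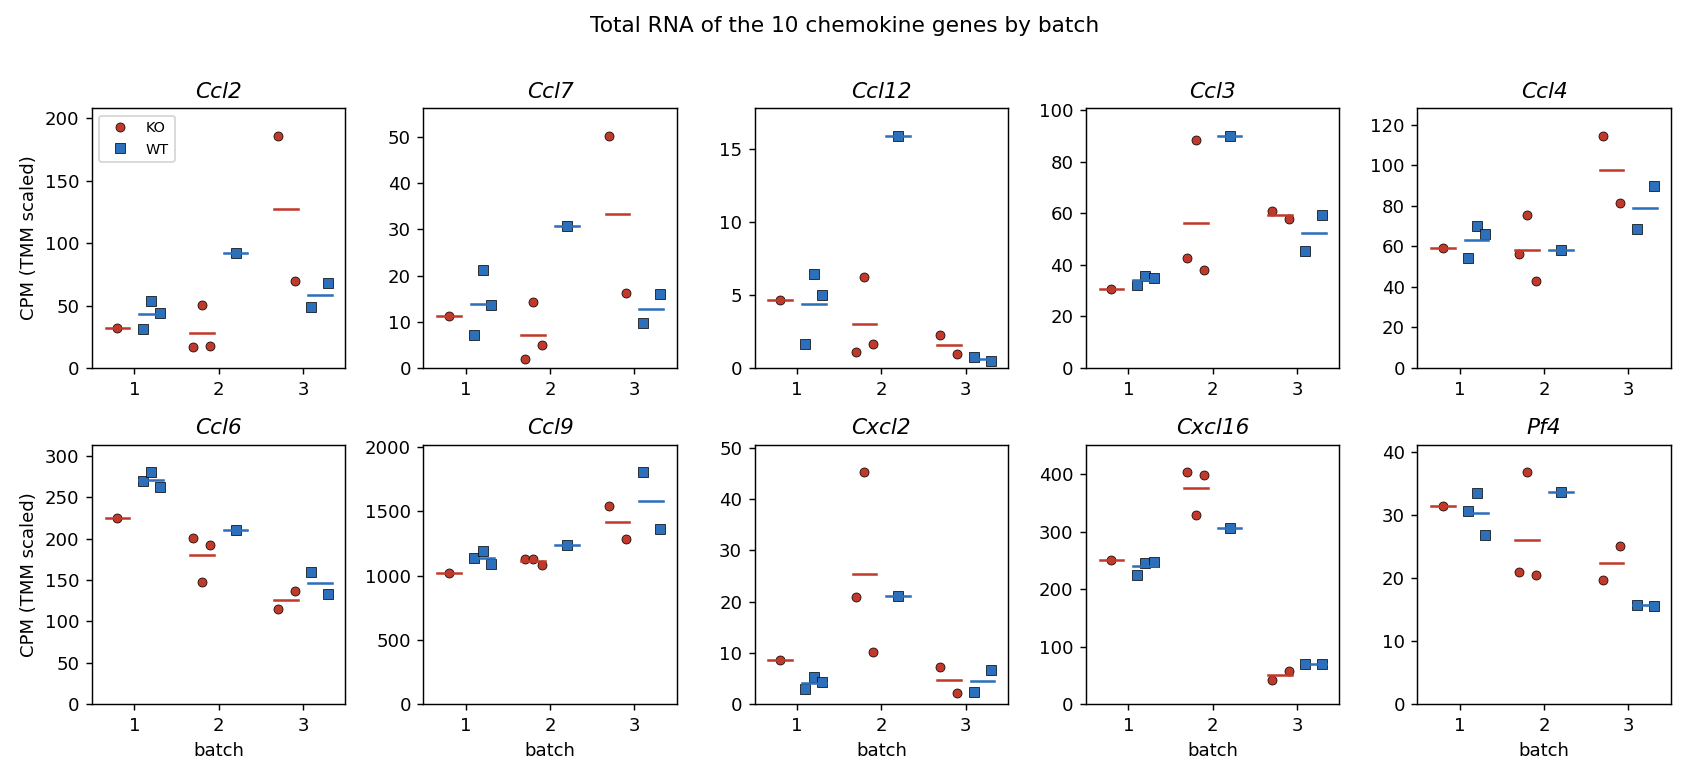
Total RNA of each gene in CPM (vertical axes, linear, from 0) by batch, with KO cultures as red circles left of WT cultures as blue squares and the mean of each group as a short line. Cxcl16 in batch 3 (42.9 to 70.2 CPM) lies below every culture of batches 1 and 2 (225 to 403 CPM), and Ccl2, Ccl7 and Ccl12 spread widely within batches.

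Ccl2, Ccl7 and Ccl12, the MCP group of monocyte attractants, differed widely between cultures of the same batch and genotype. The residual SD of log2 CPM after batch and genotype was 0.902 for Ccl2, 1.242 for Ccl7 and 1.202 for Ccl12. These were larger than in 99.2%, 99.8% and 99.7% of the 10942 genes tested, whose median was 0.19. Cxcl2 was close to the group, at 0.829 and 98.9%. This SD also holds any KO minus WT difference that changes between batches, and Ccl12 averaged only 3.92 CPM. Ccl2 total RNA was at 32.2 CPM in KO1 and 31.6, 53.5 and 43.9 CPM in WT1 to WT3 in batch 1. In batch 2 it was at 16.6, 50.3 and 17.8 CPM in KO2 to KO4 and at 92.3 CPM in WT4, and in batch 3 at 186 and 69.6 CPM in KO5 and KO6 and at 49.1 and 68.1 CPM in WT5 and WT6. The culture KO5 was the highest and KO2 the lowest, an 11.2-fold range within the KO cultures, and the 3 batches overlapped. Ccl7 was at 11.2 CPM in KO1 and 7.10, 21.1 and 13.6 CPM in WT1 to WT3. In batch 2 it was at 1.94, 14.3 and 4.86 CPM in KO2 to KO4 and 30.8 CPM in WT4, and in batch 3 at 50.2 and 16.3 CPM in KO5 and KO6 and 9.66 and 15.9 CPM in WT5 and WT6. As for Ccl2, KO5 was the highest and KO2 the lowest culture, and WT4 the highest WT culture. Ccl12 did not: it was highest in WT4 (15.9 CPM), stood at 1.11 to 6.44 CPM in the other 7 cultures of batches 1 and 2, and was at 2.26 and 0.926 CPM in KO5 and KO6 and 0.755 and 0.446 CPM in WT5 and WT6, where it rested on 16, 7, 5 and 3 counts.

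The ratio of Ccl2 to Ccl7 counts stayed within 2.54 to 8.57 over the 12 cultures, whereas that of Ccl2 to Ccl12 was 5.81 to 19.1 in batches 1 and 2 and 65.0 to 153 in batch 3. Ccl12 fell in batch 3 relative to batch 2, with a log2 fold change of -2.46 (SE 0.85, edgeR adjusted p = 0.0333). That call was lost in 5 of 12 fits that left out 1 culture (KO3, KO6, WT4, WT5 or WT6, log2 fold change -3.29 to -1.19 over all 12 fits, adjusted p up to 0.233 without WT4) and without the filter on low counts (adjusted p = 0.101). Relative to batch 1 it missed the threshold (-1.74, SE 0.87, adjusted p = 0.128) and passed it without WT4 (adjusted p = 0.0186). Ccl2 was at 1.11 (SE 0.62, adjusted p = 0.171) for batch 3 over batch 2, and at 1.93 (adjusted p = 0.0340) without WT4. No difference between batches was called for Ccl7, whose SE was 0.81 to 0.84 in the 3 comparisons. The genes whose total RNA ran most like that of Ccl2, by the root mean square distance of centred log2 CPM over the 12 libraries, were Ccl7 (0.41) and Gdf15 (0.43), a stress-induced member of the TGF-beta family, and those nearest to Ccl7 were Ccl2 and Ccr1 (0.68), a receptor that Ccl7 binds. Ccl12 lay nearest to Clec4n (0.60) and Ppfibp2 (0.66). These distances are descriptions, and the libraries share batches.

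Of the neighbours that encode the MIP-1 proteins, Ccl3 was higher in batches 2 and 3 than in batch 1, and Ccl4 was higher in batch 3 than in batches 2 and 1. Ccl3 total RNA was at 30.5 CPM in KO1 and 32.1, 35.7 and 35.1 CPM in WT1 to WT3. In batch 2 it stood at 42.7, 88.3 and 38.1 CPM in KO2 to KO4 and at 90.0 CPM in WT4, and in batch 3 at 60.9 and 57.8 CPM in KO5 and KO6 and at 45.3 and 59.5 CPM in WT5 and WT6. All cultures of batches 2 and 3 were above all of batch 1, and KO3 and WT4 stood above the rest. Ccl3 rose in batch 2 (log2 fold change 1.04, SE 0.27, adjusted p = 0.0161) and in batch 3 (0.80, SE 0.26, adjusted p = 0.0232) relative to batch 1. The rise in batch 2 was lost without KO1 or WT4 (adjusted p = 0.0508 and 0.146) and the rise in batch 3 without KO1, KO5, WT1 or WT6 (0.0522 to 0.0636). Neither passed without the filter on low counts (0.0650 and 0.0807).

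Ccl4 was at 59.3 CPM in KO1 and 54.4, 69.8 and 65.9 CPM in WT1 to WT3. In batch 2 it was at 56.0, 75.3 and 42.7 CPM in KO2 to KO4 and 58.1 CPM in WT4, and at 114 and 81.3 CPM in KO5 and KO6 and 68.7 and 89.5 CPM in WT5 and WT6. The batches overlapped, with the highest values in batch 3. It rose in batch 3 relative to batch 2 (0.63, SE 0.18, adjusted p = 0.0103), except without KO5 (adjusted p = 0.0608), and relative to batch 1 (0.47, SE 0.18, adjusted p = 0.0431), a call lost in 7 of 12 fits without 1 culture (KO1, KO2, KO5, WT1, WT3, WT4 or WT6, adjusted p 0.0520 to 0.162) and without the filter (0.0632). In batch 2 relative to batch 1 it gave -0.15 (SE 0.19, adjusted p = 0.594). The ratio of Ccl4 to Ccl3 counts was 0.645 to 1.31 in batch 2 and 1.41 to 1.88 in batch 3, against 1.69 to 1.96 in batch 1. By distance, Ccl3 lay nearest to Gapdh, the glycolytic enzyme, and Slc43a3 (0.20 and 0.21), and Ccl4 to Mrpl39 and Cep78 (0.15 each).

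Ccl6 and Ccl9, the rodent Ccr1 ligands, were the steadiest of the 10 genes within batches and moved in opposite directions in batch 3. Their residual SDs of 0.15 and 0.13 on the log2 scale were below the median of all genes. Ccl6 total RNA was at 225 CPM in KO1 and 269, 280 and 263 CPM in WT1 to WT3. In batch 2 it stood at 201, 148 and 193 CPM in KO2 to KO4 and 211 CPM in WT4, and at 115 and 137 CPM in KO5 and KO6 and 159 and 134 CPM in WT5 and WT6. Every culture of batches 2 and 3 was below every culture of batch 1. Ccl6 fell in batch 3 relative to batch 1 (log2 fold change -0.87, SE 0.11, adjusted p = 3.3e-05) and to batch 2 (-0.52, SE 0.11, adjusted p = 0.00144), and in each fit that left out a culture. Its fall in batch 2 relative to batch 1 (-0.35, SE 0.11, adjusted p = 0.0427) was lost in 8 of those 12 fits (without KO1, KO3, KO6, WT1, WT2, WT3, WT4 or WT6, adjusted p 0.0572 to 0.126).

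Ccl9 total RNA was at 1023 CPM in KO1 and 1140, 1188 and 1090 CPM in WT1 to WT3. Batch 2 had 1132, 1126 and 1084 CPM in KO2 to KO4 and 1234 CPM in WT4, and batch 3 had 1543 and 1283 CPM in KO5 and KO6 and 1801 and 1361 CPM in WT5 and WT6. All 4 cultures of batch 3 were above the other 8. It rose in batch 3 relative to batch 1 (0.47, SE 0.11, adjusted p = 0.00263), in each fit without 1 culture, and relative to batch 2 (0.35, SE 0.11, adjusted p = 0.0144), except without KO5 (0.0707). Ccl9 lay nearest to 4933434E20Rik and Aprt (0.06 each), and Ccl6 to Herc4 (0.11) and Fert2 (0.13).

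Cxcl16, the shed membrane chemokine, was called between every pair of batches. Its total RNA was at 251 CPM in KO1 and 225, 246 and 247 CPM in WT1 to WT3. Batch 2 had 403, 329 and 399 CPM in KO2 to KO4 and 307 CPM in WT4, and batch 3 had 42.9 and 57.2 CPM in KO5 and KO6 and 70.2 CPM in each of WT5 and WT6. The 3 batches did not overlap. Cxcl16 fell in batch 3 relative to batch 2 by 2.61 on the log2 scale (SE 0.16, adjusted p = 7.1e-08) and relative to batch 1 by 2.001 (SE 0.15, adjusted p = 5.3e-07), and rose in batch 2 relative to batch 1 by 0.61 (SE 0.15, adjusted p = 0.0136). All 3 calls held in every fit that left out 1 culture. Its nearest genes were Tlr1 (0.18), a receptor for bacterial lipopeptides, and Cybb (0.20), a subunit of the phagocyte NADPH oxidase.

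Cxcl2 total RNA was at 8.59 CPM in KO1 and 2.89, 5.37 and 4.43 CPM in WT1 to WT3, at 21.0, 45.2 and 10.1 CPM in KO2 to KO4 and 21.2 CPM in WT4, and at 7.19 and 2.12 CPM in KO5 and KO6 and 2.42 and 6.69 CPM in WT5 and WT6. Every batch 2 culture was above every culture of the other batches. It rose in batch 2 relative to batch 1 (2.04, SE 0.53, adjusted p = 0.0208), except without WT3 (0.0519) or WT4 (0.114) or without the filter (0.0615), and fell in batch 3 relative to batch 2 (-2.30, SE 0.53, adjusted p = 0.00496) in each fit without 1 culture. The nearest genes were Gpr84 (0.56), a receptor of activated macrophages, and the chemokine Ccl5 (0.59).

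Pf4 was at 31.3 CPM in KO1 and 30.6, 33.4 and 26.7 CPM in WT1 to WT3, at 21.0, 36.7 and 20.5 CPM in KO2 to KO4 and 33.6 CPM in WT4, and at 19.6 and 25.01 CPM in KO5 and KO6 and 15.7 and 15.6 CPM in WT5 and WT6. Batch 3 lay below batch 1 without overlap. Pf4 fell in batch 3 relative to batch 1 (-0.71, SE 0.21, adjusted p = 0.0145), except without WT5 (0.0640) or WT6 (0.0591). Its fall relative to batch 2 (-0.54, SE 0.21, adjusted p = 0.0449) was lost in 9 of 12 fits without 1 culture (KO1, KO3, KO5, WT1 to WT6, adjusted p 0.0534 to 0.253) and without the filter (0.0837). Summed megakaryocyte and platelet markers (13 of 13 found, 2 passing the filter) were at 173 to 215, 88.9 to 218 and 273 to 343 CPM in batches 1 to 3, carried by Vwf and Itgb3. The platelet-defining Gp9, Gp1ba and Gp1bb had 0 to 2 counts per library. The nearest genes to Pf4 were Mr1 (0.20) and Mtr (0.21).

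**Figure D2:**
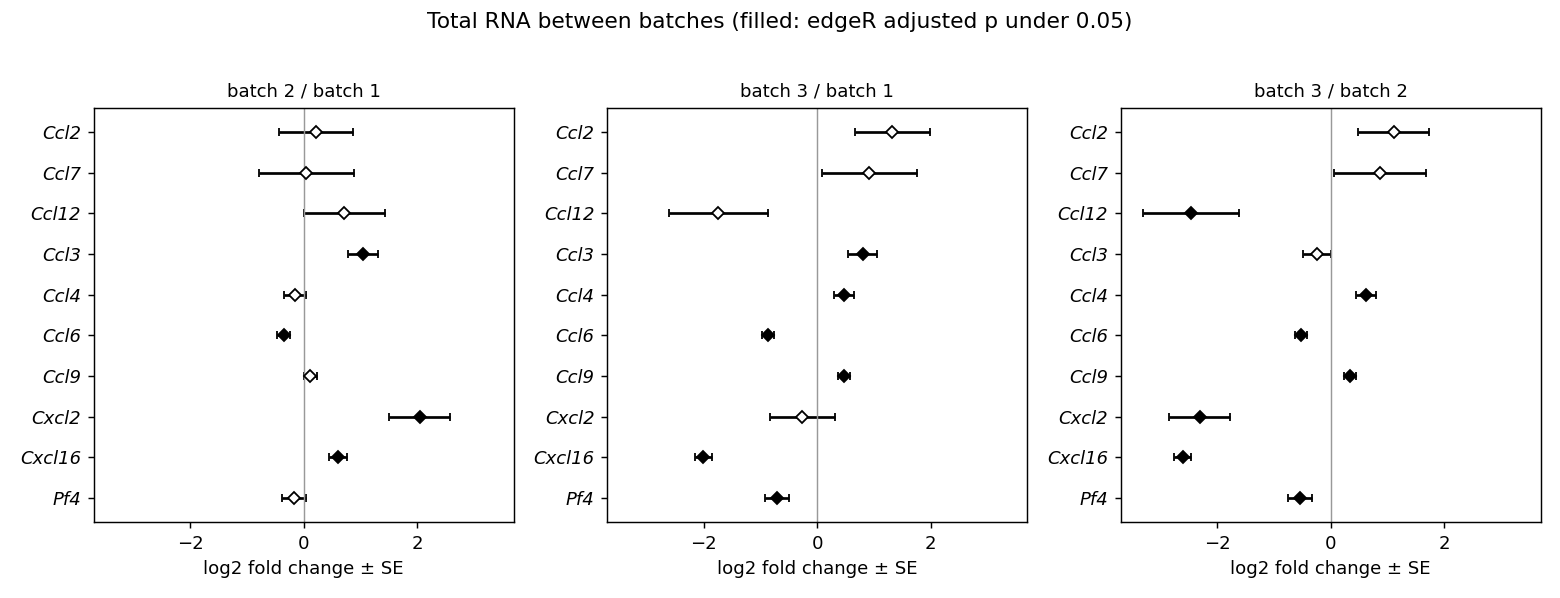
Log2 fold change of total RNA between batches for each gene (diamonds, with bars of 1 SE), from edgeR over all 12 cultures, filled where the adjusted p was under 0.05. Cxcl16 is filled in all 3 panels, at 0.61, -2.001 and -2.61, and Ccl2 and Ccl7 in none.

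In batch 2 relative to batch 1, 4 of the 10 chemokines were called, where 23.5% of the 10942 genes were. Ccl3, Cxcl2 and Cxcl16 were higher, as were 12.7% of genes, and Ccl6 was lower, as were 10.8%. In batch 3 relative to batch 1, 6 were called, where 45.3% of genes were: Ccl3, Ccl4 and Ccl9 were higher, as were 23.0% of genes, and Ccl6, Cxcl16 and Pf4 lower, as were 22.3%. In batch 3 relative to batch 2, 7 were called, where 49.2% were: Ccl4 and Ccl9 were higher, as were 24.7%, and Ccl6, Ccl12, Cxcl2, Cxcl16 and Pf4 lower, as were 24.5%. The median log2 fold changes of the 10 were 0.17, 0.10 and -0.38, beside 0.00, 0.01 and 0.01 over all genes. With this background and 10 members, the counts are given as a description and not as a property of chemokine genes.

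The lists around these genes moved between batches as follows. Over all genes, 23.5% were called in batch 2 relative to batch 1, 45.3% in batch 3 relative to batch 1 and 49.2% in batch 3 relative to batch 2. Of 25 NF-kB target genes 23 were tested, and in batch 2 relative to batch 1, 12 rose, none fell and 11 were not called (median 0.78), led by the inhibitor gene Nfkbib (1.15), Bcl3 (1.68), Birc3 (0.71), Traf1 (0.78) and Zc3h12a (0.86). In batch 3 relative to batch 2, 18 fell and none rose (median -1.03), led by Cd40 (-3.48), Birc3 (-1.43), Traf1 (-1.50), Bcl3 (-3.05) and Zc3h12a (-1.56). In batch 3 relative to batch 1, 14 fell and 2 rose (median -0.72), led by Cd40 (-2.67), Nfkb2 (-0.94), Nfkb1 (-0.66), Relb (-0.945) and the cytokine gene Il1b (-3.9996). Of 20 interferon-stimulated genes, all tested, 9 rose in batch 2 relative to batch 1 (median 0.39), led by Irf7 (1.38), and 16 and 19 fell in batch 3 relative to batch 1 and batch 2 (medians -0.72 and -1.17), led by Ifi44 in both (-2.35 and -2.61).

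Among 26 other chemokine ligands, 5 passed the filter, and Ccl20 and Ccl26 had 0 counts in every total RNA library. Ccl5, a T cell attractant, rose in batch 2 relative to batch 1 (2.24, SE 0.35, adjusted p = 9.3e-04) and fell in batch 3 relative to batch 2 (-2.05, SE 0.33, adjusted p = 2.6e-04). Cxcl10, the interferon-induced ligand of Cxcr3, did likewise (1.58, SE 0.38, adjusted p = 0.0127 and -1.78, SE 0.36, adjusted p = 0.00171). Cxcl14 fell in batch 3 relative to batch 1 (-1.83) and batch 2 (-1.98), and neither Ccl25 nor Cx3cl1 was called, with log2 fold changes of -0.38 to 0.21 in the 3 comparisons.

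Of 23 chemokine receptors 19 were found by symbol and 9 passed the filter, and Cxcr6, the receptor of Cxcl16, and Ccr8 had 0 counts in every total RNA library. Ccr2, the receptor of the MCP group and a monocyte marker, rose in batch 2 relative to batch 1 (1.54, SE 0.37, adjusted p = 0.0141) and fell in batch 3 relative to batch 2 (-2.09, SE 0.34, adjusted p = 6.6e-04). Ccr1, the receptor of Ccl3, Ccl6 and Ccl9, rose in batch 3 relative to batch 1 and batch 2 (0.95, SE 0.32 and 0.91, SE 0.32, adjusted p = 0.0280 and 0.0335). Ccr3, a receptor of eosinophils and basophils, fell in batch 3 relative to batch 1 and batch 2 (-6.31 and -4.21), as did Cx3cr1 (-0.90 and -1.04), and Cxcr4 fell in batch 3 relative to batch 2 (-0.75, adjusted p = 0.00361) and missed the threshold relative to batch 1 (-0.40, adjusted p = 0.0727). Cxcr2, the receptor of Cxcl2, with 1.04 to 4.79 CPM over the 12 cultures, Cxcr3 and Ccrl2 were not called in any of the 3.

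Of 20 genes for ligand shedding and receptor signalling, 16 were tested, with 5 rising and 5 falling in batch 2 relative to batch 1, 1 and 8 in batch 3 relative to batch 1, and 3 and 8 in batch 3 relative to batch 2, the sheddase gene Adam17 at -0.85 and -0.99 in batch 3. Of 20 genes of the secretory pathway, which takes chemokines into the endoplasmic reticulum, 4 rose and 1 fell, 13 rose and 1 fell, and 11 rose and 2 fell in the same comparisons, led in batch 3 over batch 2 by the signal peptidase subunit Sec11c (1.27). Of 10 genes for RNA-binding proteins, 1 rose and 2 fell, 1 rose and 4 fell, and 1 rose and 3 fell, with Zfp36l1 at -3.71 and -3.48 in batch 3. Most of these proteins bind AU-rich elements, which destabilise cytokine mRNAs, while Pum2 and Rc3h1 are known for other elements. Of the falls, Pum2 gave -0.42 in batch 2 relative to batch 1, and Pum2 and Rc3h1 gave -0.34 and -0.37 in batch 3 relative to batch 1. No gene of these 7 lists was called between KO and WT in total RNA, where 0.0183% of all genes were. These lists were chosen with earlier results of the same libraries known, and the cell type markers given above moved with the same batches.

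Footprint counts of a member in a library ranged over 0 to 3435. Cxcl16 footprints were at 161 CPM in KO1 and 173, 120 and 143 CPM in WT1 to WT3, at 225, 195 and 186 CPM in KO2 to KO4 and 169 CPM in WT4, and at 31.9 and 21.2 CPM in KO5 and KO6 and 50.4 and 80.4 CPM in WT5 and WT6. Batch 3 lay below batches 1 and 2 without overlap, although its values rested on 7, 2, 11 and 3 counts. Ccl9 footprints were at 426 CPM in KO1 and 535, 391 and 463 CPM in WT1 to WT3, at 632, 703 and 705 CPM in KO2 to KO4 and 996 CPM in WT4, and at 724 and 509 CPM in KO5 and KO6 and 596 and 777 CPM in WT5 and WT6. Batch 2 stood above batch 1 without overlap.

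Ccl6 footprints were at 117 CPM in KO1 and 193, 184 and 154 CPM in WT1 to WT3, at 85.1, 81.4 and 105 CPM in KO2 to KO4 and 136 CPM in WT4, and at 95.6 and 63.6 CPM in KO5 and KO6 and 96.2 and 53.6 CPM in WT5 and WT6. Batch 3 lay below batch 1 without overlap, although its values rested on 21, 6, 21 and 2 counts, and WT4 lay above KO1. Pf4 footprints were at 22.8 CPM in KO1 and 27.4, 25.9 and 32.9 CPM in WT1 to WT3. They were at 26.5, 36.5 and 36.2 CPM in KO2 to KO4 and 38.6 CPM in WT4. In batch 3 they were at 36.4 and 10.6 CPM in KO5 and KO6 and 13.8 and 80.4 CPM in WT5 and WT6. The batch 3 values came from 8, 1, 3 and 3 counts. Ccl2 footprints ranged over 20.3 to 241 CPM in KO cultures and 35.6 to 157 CPM in WT cultures, highest in KO5 and WT4 as in total RNA. The lowest, median and highest footprint levels of Ccl4 were 40.9, 98.9 and 200 CPM in KO cultures and 80.6, 118 and 160 CPM in WT cultures, and those of Ccl3 were 12.9, 35.4 and 95.6 CPM and 34.9, 51.0 and 68.7 CPM. Ccl7, Ccl12 and Cxcl2 did not pass the filter in footprints. Ccl7 had 0 counts in WT6, Ccl12 in KO6 and WT6, and Cxcl2 in KO1, KO6 and WT6, which allows up to 4.88 CPM in KO1, 31.8 CPM in KO6 and 80.4 CPM in WT6 (3 counts of the library, counting error only).

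**Figure D3:**
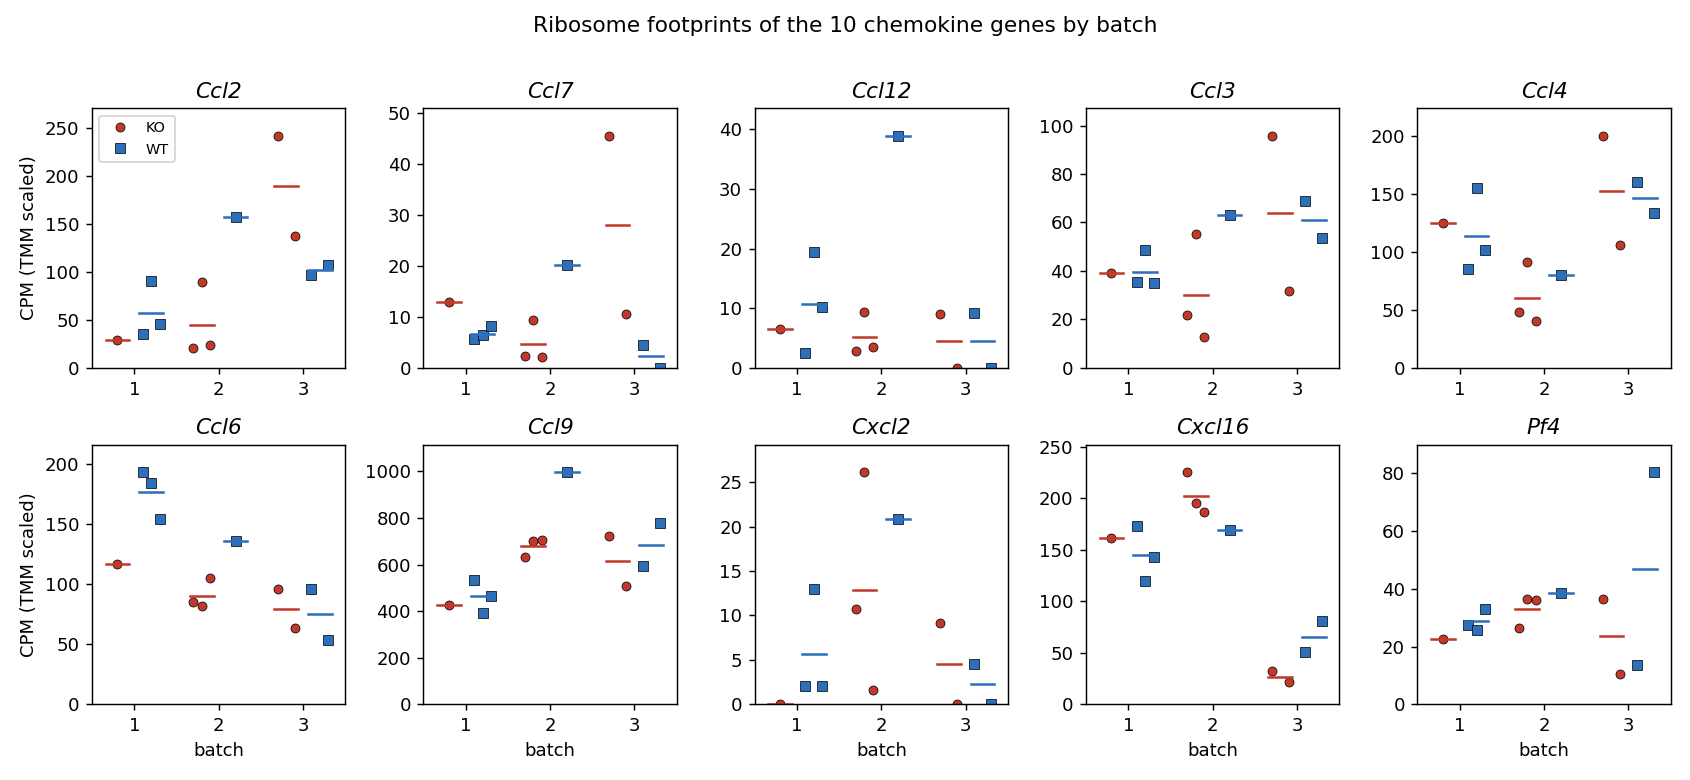
Ribosome footprints of each gene in CPM (vertical axes, linear, from 0) by batch, with KO cultures as red circles left of WT cultures as blue squares and the group mean as a short line. Ccl9 lies at 632 to 996 CPM in batch 2, against 391 to 535 CPM in batch 1, and the batch 3 libraries hold 29561 to 223504 counts each.

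Because batch 3 footprint libraries were shallow, batches were compared in footprints for batch 2 over batch 1 only. Ccl9 was the 1 member called among the 7 tested, where 15.4% of the 7208 genes were, with a log2 fold change of 0.85 (SE 0.16, adjusted p = 3.0e-04), in each fit without 1 culture. Its total RNA did not pass in that comparison (0.12, SE 0.11, adjusted p = 0.463). Ccl4 missed the threshold (-0.76, SE 0.27, adjusted p = 0.0644) and passed it without KO3, WT1 or WT4 and without the filter on low counts (adjusted p = 0.00207). The footprint to RNA ratio, tested as the interaction of batch and molecule, rose in batch 2 for Ccl9 (0.76, SE 0.20, adjusted p = 0.0126), where 10.0% of the 10747 genes were called, but not without KO1 (0.0558) or WT4 (0.239). With the culture as a replicate block, which ties the footprint and RNA library of a culture together, Ccl2 rose (0.59, adjusted p = 0.0286) and Ccl3 (-0.87, adjusted p = 0.00181) and Ccl4 (-0.57, adjusted p = 0.0127) fell as well, where the same block called 2311 genes.

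Per culture, the Ccl9 ratio of footprint CPM to total RNA CPM was 0.417 in KO1 and 0.469, 0.329 and 0.425 in WT1 to WT3, 0.558, 0.624 and 0.650 in KO2 to KO4 and 0.807 in WT4, and 0.469 and 0.396 in KO5 and KO6 and 0.331 and 0.571 in WT5 and WT6. Batch 2 lay above batch 1 without overlap. The ratio of Ccl3 was 1.28 in KO1 and 1.11, 1.36 and 0.996 in WT1 to WT3, 0.508, 0.626 and 0.338 in KO2 to KO4 and 0.699 in WT4, and 1.57 and 0.550 in KO5 and KO6 and 1.52 and 0.901 in WT5 and WT6. Every batch 2 ratio of Ccl3 was below every batch 1 ratio, and its footprints gave a log2 fold change of 0.21 (SE 0.50, adjusted p = 0.838) in batch 2 relative to batch 1, beside 1.04 in total RNA.

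Leaving aside Ccl7, Ccl12, Cxcl2 and Pf4, which follow, Ccl2 and Ccl4 had the higher mean ratios over all cultures and Ccl6, Ccl9 and Cxcl16 the lower ones. The mean ratio was 0.504 ± 0.142 for Ccl9, 0.579 ± 0.124 for Ccl6, 0.635 ± 0.199 for Cxcl16, 0.954 ± 0.417 for Ccl3, 1.47 ± 0.364 for Ccl2 and 1.57 ± 0.471 for Ccl4 (SD, n = 12), while the median of the gene means was 1.00 over 7203 genes and the median of all genes ranged over 0.670 to 0.998 between cultures. Footprints were counted in coding sequence and the region of the RNA counts is not given, so a ratio is comparable between cultures and less so between genes. In the fit of footprints over total RNA, Ccl4 was higher in footprints (0.71, SE 0.15, adjusted p = 2.2e-04), and Ccl6 (-0.64, SE 0.09, adjusted p = 2.3e-07), Ccl9 (-0.93, SE 0.08, adjusted p = 4.7e-12) and Cxcl16 (-0.61, SE 0.12, adjusted p = 6.2e-05) were lower, where 66.9% of genes were called, 28.4% higher and 38.5% lower, and the median of all genes was -0.13. All 4 calls held in each fit without 1 culture and, at 0.61, -0.64, -0.80 and -0.63, without batch 3. With the culture as a replicate block Ccl2 (0.59, adjusted p = 4.4e-09) and Ccl12 (1.56, adjusted p = 2.9e-04) were also higher in footprints. Ratios of Ccl7, Ccl12, Cxcl2 and Pf4 averaged 0.652, 2.74, 0.748 and 1.43 (medians 0.655, 2.12, 0.543 and 1.07), so that Ccl12 lay above Ccl4 and Ccl7 beside Cxcl16. They rested on 3 or fewer footprint counts in some cultures, with highest values of 1.16, 12.1, 2.41 and 5.15. Such counts also underlie the ratios of Ccl3 in KO6 and WT6 (3 and 2 counts), Cxcl16 in KO6 and WT6 (2 and 3 counts) and Ccl6 in WT6 (2 counts).

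**Figure D4:**
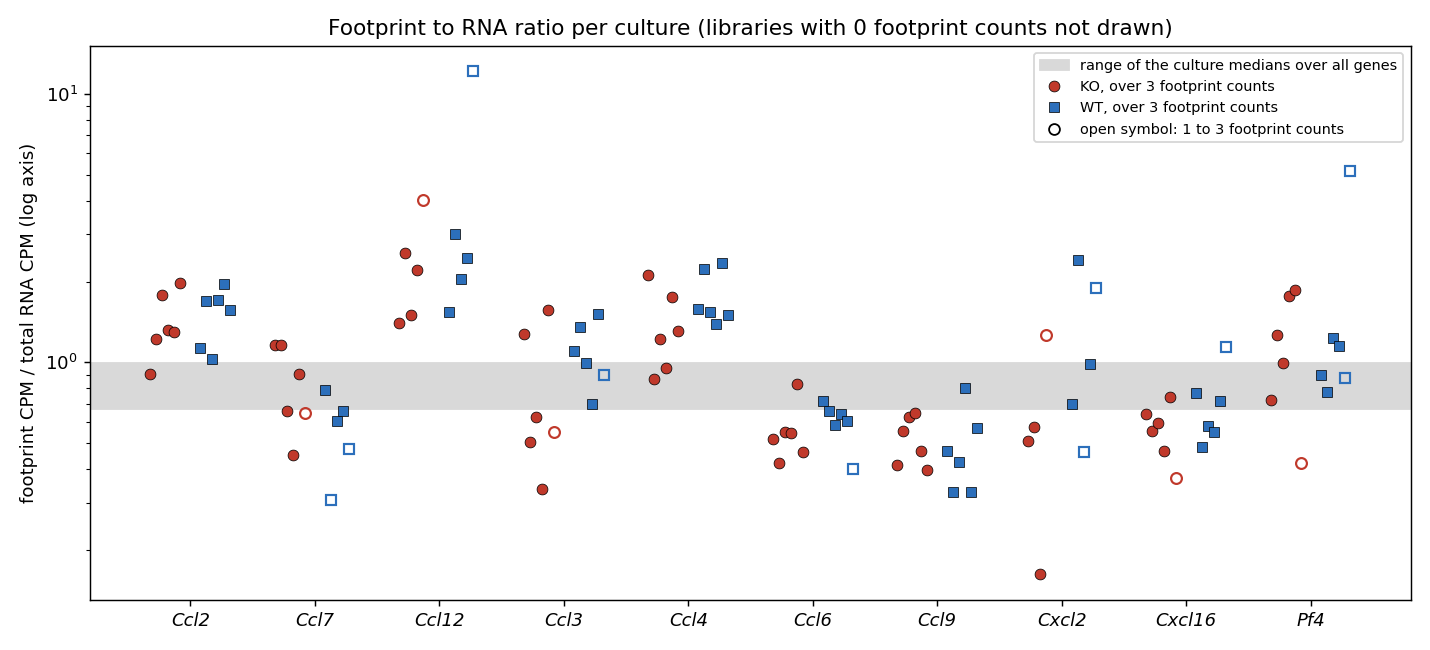
Ratio of footprint CPM to total RNA CPM for each gene (vertical log axis), with KO cultures as red circles left of WT cultures as blue squares, open where the footprint library held 1 to 3 counts of the gene, and a grey band for the range of the culture medians over all genes (0.670 to 0.998). Ccl2 and Ccl4 lie mostly above the band, and Ccl6, Ccl9 and Cxcl16 mostly below it.

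No chemokine gene was called between KO and WT, in total RNA, in footprints or in their ratio. In total RNA 0 of the 10 passed, where 0.0183% of genes were called, and at an unadjusted p under 0.05 only Ccl6 did, where 4.68% of genes were. DESeq2, which called 7 genes in all, called none of the 10. KO and WT cultures overlapped for every member in both molecules. The share of all genes that do so was not counted, so this overlap is a description. Ccl6 total RNA had the smallest p, at 115, 170 and 225 CPM (lowest, median, highest) in KO cultures and 134, 237 and 280 CPM in WT cultures, a log2 fold change of -0.24 (SE 0.09, unadjusted p = 0.0257, adjusted p = 0.859). Its KO minus WT difference in log2 CPM was -0.27, -0.24 and -0.22 in batches 1 to 3, and that of Ccl9 was -0.15 in each, while the other 8 genes changed sign between batches.

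For the MCP group the sign of KO minus WT differed by batch, a difference that was not tested. In total RNA, KO minus WT was -0.38, -1.90 and 0.97 for Ccl2, -0.18, -2.50 and 1.19 for Ccl7 and 0.26, -2.66 and 1.03 for Ccl12 in batches 1 to 3. Batch 1 has 1 KO culture and batch 2 has 1 WT culture, WT4, so those differences have no spread on that side. Fitted over all batches, Ccl2 gave -0.25 (SE 0.55), Ccl7 -0.24 (SE 0.71) and Ccl12 -0.76 (SE 0.66), and without WT4 they gave 0.54, 0.73 and 0.51. For Cxcl16 the within-batch values were 0.07, 0.29 and -0.50, and the fit gave -0.08 (SE 0.13). The remaining members gave -0.19 (Ccl3, SE 0.22), 0.10 (Ccl4, SE 0.16), -0.16 (Ccl9, SE 0.09), 0.43 (Cxcl2, SE 0.46) and 0.09 (Pf4, SE 0.18). Without batch 3, Ccl4, Cxcl16 and Pf4 changed sign, at -0.04, 0.19 and -0.15.

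In footprints 0 of the 7 members tested passed, where 0.0832% of genes were called, and Ccl6 alone was under an unadjusted p of 0.05, where 8.52% of genes were. DESeq2 called none of the members. Of the listed genes Mmp9, a protease that cleaves chemokines, was lower in KO footprints (-1.50, SE 0.31, adjusted p = 0.0335), as was the neutrophil marker S100a8 (-1.28, SE 0.23, adjusted p = 0.00838). These are among 6 genes called, of which Apobec1 is another, and 1 gene in all was called in each of the fits with DESeq2, without the batch term and without WT4. Ccl6 gave -0.50 (SE 0.16, unadjusted p = 0.00334, adjusted p = 0.293), with KO minus WT at -0.58, -0.59 and 0.12 in batches 1 to 3. Ccl2 gave -1.04 (SE 0.64), Ccl3 -0.70 (SE 0.45), Ccl9 -0.27 (SE 0.13), Pf4 -0.23 (SE 0.24), Ccl4 -0.13 (SE 0.24) and Cxcl16 0.09 (SE 0.17). With the 4 footprint libraries over 1000000 counts alone (KO2, KO4, WT1 and WT4), 1413 genes and 8 members were called between genotypes, among them Ccl2 (-2.85) and Ccl3 (-1.87). In that fit the genotypes are compared within batch 2 by 1 culture, WT4, against 2.

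In the footprint to RNA ratio 0 of the 10 passed, where 0.00930% of genes were called and 2.98% had an unadjusted p under 0.05. The log2 differences in ratio were -0.28 (SE 0.18) for Ccl6, -0.11 (SE 0.17) for Ccl9, 0.18 (SE 0.22) for Cxcl16, -0.24 (SE 0.30) for Ccl4, -0.55 (SE 0.50) for Ccl3, -0.85 (SE 0.88) for Ccl2 and -0.32 (SE 0.30) for Pf4, and those of Ccl7, Ccl12 and Cxcl2 had SEs of 1.00 to 1.32. Without the filter on low counts Ccl2 (-0.86), Ccl12 (-1.89) and Cxcl2 (-1.54) passed (adjusted p 0.0289 to 0.0444). In the authors' deposited table over all genes, which does not state the contrast or its direction, each of the 10 members had an adjusted p of 1, with unadjusted p-values of 0.0528 to 0.904.

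**Figure D5:**
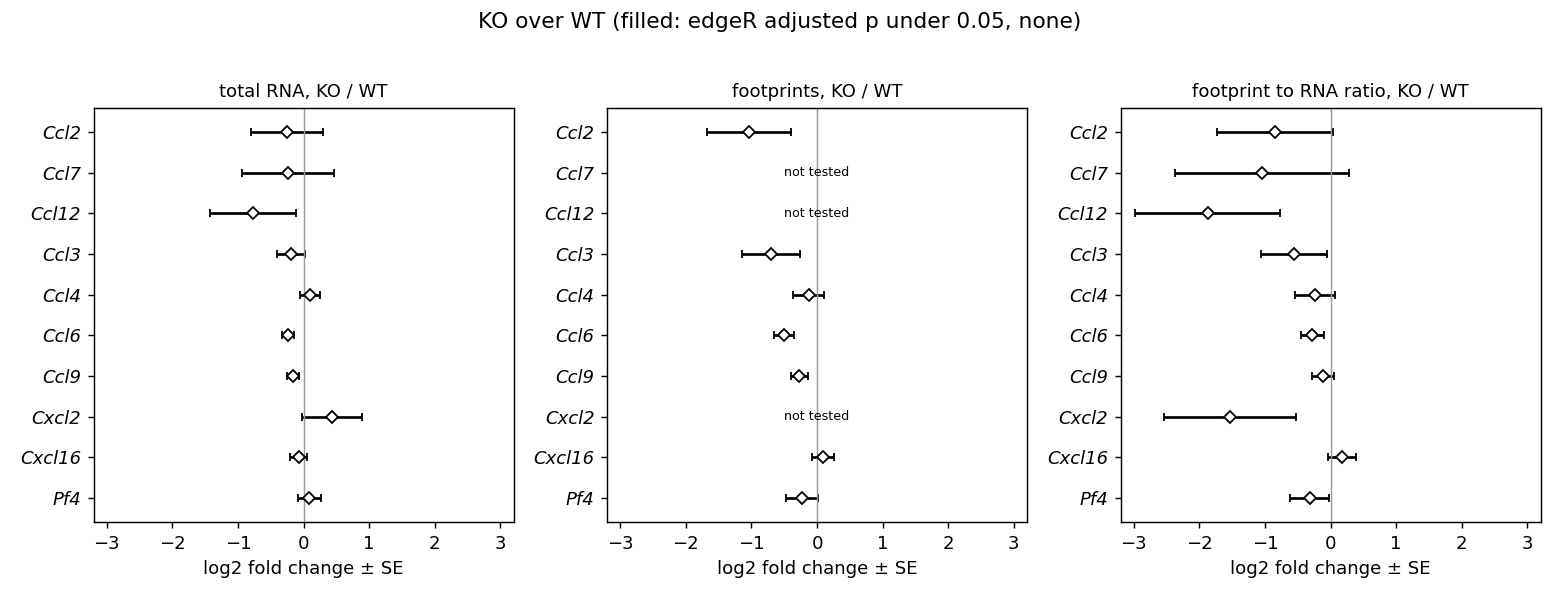
Log2 fold change KO over WT for each gene (diamonds, with bars of 1 SE) in total RNA, footprints and their ratio, from edgeR with batch in the model. No diamond is filled, since no adjusted p was under 0.05, and Ccl7, Ccl12 and Cxcl2 were not tested in footprints.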

How the data were processed

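Per the submitters' processing notes, the tools were DESeq, DESeq2, HTSeq, Trim Galore, Cufflinks 2.2.1, TopHat2 2.1.0 and Bowtie 1.1.2, with build mm10. For strand setting and annotation, nothing is given in the sources used. The authors deposited raw counts per gene for each library, for footprints in coding sequence per the file names. Their result tables, as deposited, hold log2 fold changes of unstated direction, p-values, a score per gene (the test statistic) and a mean signal of scaled counts. Summary lines that name no gene took 42.8% to 55.8% of total RNA reads and 52.6% to 84.2% of footprint reads, mostly reads that did not map uniquely, and were left out.

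Counts were tested with edgeR 4.0.16 (quasi-likelihood test, robust, TMM, minimum count 10 in the filter on low counts, Benjamini-Hochberg adjustment over all genes tested, threshold 0.05) in R 4.3.3 with limma 3.58.1, with genotype and batch in the model. A difference in the footprint to RNA ratio is an interaction in 1 model over all 24 libraries. The main fit of that model takes the footprint and RNA library of a culture as independent, and the culture block is the alternative that ties them. The alternatives were DESeq2 1.42.0, other size factors, no filter, no batch term, a replicate block, leaving out each culture, shallow libraries or batch 3. Scripts were tested on simulated data. CPM are TMM-scaled within each molecule, and likeness uses log2 CPM with a prior count of 2. Footprint and RNA libraries of a culture share its label; their deviations correlated at 0.0055 to 0.56. No gene lengths were used, so levels are not compared between genes. All 10 members are named, and of the lists the called ligands and receptors and up to 5 called genes with the smallest p. A result for 1 of the receptors is not reported here. The members and lists were chosen with earlier results of these data known. Limits for 0 counts (3 counts) cover counting error only.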

Additional observations from a re-analysis of the deposited data

Results flagged for a closer look

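Among 40 groups of 6 cultures, 1 for each gene, molecule and genotype, 5 had a culture far from the others. The rule compared CPM on the linear scale and not log2 CPM. Its chance rate of about 1 in 20 assumes normally distributed values and batches that do not differ, which was not tested. Each of the 5 was the highest culture of its group, so the 5 are a description and not an excess over chance. The 6 cultures of a group come from 3 batches. In total RNA these were KO5 for Ccl2 (186 CPM, next 69.6 CPM) and for Ccl7 (50.2 CPM, next 16.3 CPM) and WT4 for Cxcl2 (21.2 CPM, next 6.69 CPM). WT4 is the 1 WT culture of batch 2, whose KO cultures were at 10.1 to 45.2 CPM. In footprints they were KO5 for Ccl7 (45.5 CPM, from 10 counts) and WT6 for Pf4 (80.35 CPM, from 3 counts).

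For some genes every KO culture lay on one side of the WT cultures in a batch and on the other side in another batch. With so few cultures per batch, such separation also arises by chance. The share of all genes that show it was not counted, so these values are a description. This difference between batches was not tested, and batches 1 and 2 each have 1 culture of a genotype. KO minus WT in log2 CPM of total RNA was -1.90 in batch 2 and 0.97 in batch 3 for Ccl2, -2.50 and 1.19 for Ccl7, and -2.66 and 1.03 for Ccl12. For Cxcl16 it was 0.071 in batch 1, 0.29 in batch 2 and -0.50 in batch 3. In footprints it was -0.82, -2.11 and 0.84 in batches 1 to 3 for Ccl2, 0.83, -2.03 and 2.98 for Ccl7, and 0.25 in batch 2 and -1.24 in batch 3 for Cxcl16. In KO5, KO6, WT5 and WT6, the batch 3 values rested on 10, 1, 1 and 0 counts for Ccl7 and 7, 2, 11 and 3 for Cxcl16. Ccl7 did not pass the filter on low counts in footprints.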

How the results depend on the processing

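Of 1453 values of single genes under alternative settings, 1317 were counted as unchanged, 55 changed direction, 49 lost a call and 32 gained one. Unchanged means the same direction and side of the threshold. For a mean level under another scaling of CPM, it means a shift smaller than the SD over cultures. The cause of each change below was not tested.

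Between KO and WT in total RNA, 2 genes were called, against 7 with DESeq2, 10 without the filter on low counts, 0 with the replicate block and 1 without batch 3, an alternative chosen after seeing the data. In footprints 6 were called, against 1 with DESeq2, 159 without the filter (1 of them a chemokine member), 1 without the batch term, 3 with the block, 19 without batch 3 and 1413 (8 members) without the shallow libraries. In the ratio 1 was called, against 26 without the filter (3 members) and 2 without the shallow libraries. For batch 2 over batch 1, the filter's removal gave 2 members in total RNA, 4 in footprints and 3 in the ratio, leaving out shallow libraries gave 1936 genes and 6 members in footprints, and the block gave 2311 genes and 4 members in the ratio. For footprints over total RNA, 8 members were called without the filter and 8 without the shallow libraries, where 66.9% of genes were called in the main fit. Without the shallow libraries, batch 1 holds WT1 alone, so batch 2 over batch 1 there compares 1 culture with 1, WT4 with WT1. The spread in that fit comes from KO2 and KO4 only, so its counts are not a replicated difference between batches. The main fits of batch 2 over batch 1 called 23.5% of genes in total RNA, 15.4% in footprints and 10.0% in the ratio. Shares of all genes for the fits without the filter are not given here, so these member counts are a description.

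The block for KO over WT in total RNA or footprints used the replicate number, and it was not run for comparisons between batches there. Whether the numbers that KO and WT cultures share pair them was not settled. Deviations after batch and genotype correlated at -0.64 to 0.16 in total RNA and -0.66 to 0.31 in footprints. These correlations cannot decide it, since deviations sum to 0 within a batch and some shared numbers lie in different batches. No member was called with or without the block.

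Direction changed for these values. Without the batch term, KO over WT in total RNA was 0.14 for Ccl2, 0.10 for Ccl3, 0.022 for Ccl7, 0.34 for Cxcl16 and -0.016 for Pf4, and in the ratio 0.13 for Ccl9 and -0.14 for Cxcl16. With the replicate block it was 0.25 for Ccl7 in total RNA, -0.12 for Cxcl16 in footprints, and 0.32, -0.050 and 0.045 for Ccl7, Cxcl16 and Pf4 in the ratio, and batch 2 over batch 1 was -0.13 for Ccl7 in the ratio. With DESeq2 the ratio of Ccl7 was 0.35 for KO over WT and -0.011 for batch 2 over batch 1. Without the shallow libraries, KO over WT in the ratio was 0.12 for Ccl7, -0.079 for Cxcl16 and 0.42 for Pf4, and batch 2 over batch 1 was -0.023 for Cxcl16 in footprints and -0.26 for Ccl7 in the ratio. Without batch 3, KO over WT in total RNA was -0.043 for Ccl4, 0.19 for Cxcl16 and -0.15 for Pf4.

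When each culture was left out in turn, the genes called ranged over 2 to 9 in total RNA for KO over WT, 1 (without WT4) to 269 (without KO1) in footprints and 1 in the ratio. They ranged over 1345 (without WT4) to 3041 with 1 to 4 members for total RNA, batch 2 over batch 1, over 4252 to 5279 with 3 to 6 members for batch 3 over batch 1, and over 4189 to 5401 with 4 to 7 members for batch 3 over batch 2. For batch 2 over batch 1 they ranged over 597 to 1193 with 1 to 2 members in footprints and over 328 (without WT4) to 1347 with 0 to 1 members in the ratio, and for footprints over total RNA over 6556 to 7150 with 4 members. Direction changed in 32 such fits, over 25 of 84 results, none of them called, most often without WT4. In total RNA, KO over WT, the range was Ccl2 -0.67 to 0.54, Ccl3 -0.31 to 0.040, Ccl4 -0.018 to 0.18, Ccl7 -0.76 to 0.73, Ccl12 -1.28 to 0.51, Cxcl16 -0.22 to 0.046 and Pf4 -0.019 to 0.30. In footprints, KO over WT, the range was Ccl2 -1.46 to 0.20, Ccl3 -1.03 to 0.094, Ccl4 -0.35 to 0.19 and Cxcl16 -0.062 to 0.14. In the ratio, KO over WT, the range was Ccl3 -0.82 to 0.051, Ccl4 -0.51 to 0.047, Ccl7 -1.61 to 0.70 and Ccl9 -0.24 to 0.067. In total RNA, batch 2 over batch 1, the range was Ccl2 -0.96 to 0.44, Ccl7 -1.52 to 0.36 and Ccl12 -0.95 to 1.22. In total RNA, batch 3 over batch 1, the range was Cxcl2 -0.69 to 0.057. In total RNA, batch 3 over batch 2, the range was Ccl3 -0.40 to 0.0059. In footprints, batch 2 over batch 1, the range was Ccl2 -0.46 to 1.22 and Ccl3 -0.70 to 0.55. In the ratio, batch 2 over batch 1, the range was Ccl6 -0.082 to 0.044 and Ccl7 -0.77 to 1.26. For footprints over total RNA, the range was Ccl3 -0.23 to 0.011.

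Levels per kilobase were planned and not run, since no gene lengths were at hand. Depth limits the footprints: batch 3 libraries held at most 223504 counts, and Ccl7, Ccl12 and Cxcl2 had 10 or fewer footprint counts in most cultures.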
